A study of Arabidopsis thaliana with 4 samples.

Results

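GIGANTEA (GI), CCR-like (CCL), HY5-homolog (HYH) and ATTENUATED FAR-RED RESPONSE (AFR) are 4 Arabidopsis thaliana genes of the circadian clock and of light signalling, and all 4 differed widely in signal between Columbia and Nössen seedlings. They were chosen by that difference in signal, seen in earlier results of the same 4 arrays, so their values between the backgrounds are a description and support nothing. The array annotation names 13355 genes with a probe set of their own (a set of short oligonucleotides that reads 1 transcript), and these 4 genes have 1 probe set each. RNA came from whole seedlings 2 weeks old, kept at 22 °C on a 2% sucrose medium with a day of 16 h light and 8 h dark (100 µmol per m2 per s), and was read on Affymetrix ATH1 arrays. The 4 arrays held the Nössen wild type (NO), the duf761-1 mutant in Nössen, the Columbia-0 wild type (Col-0), and OE6, a transgenic Columbia-0 line that overexpresses DUF761-1. The promoter that drives the transgene and the number of plants pooled for each array are not given in the sources used here. The labels also give no hour of harvest.

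The plant clock is a set of transcription factors and partner proteins that repress and activate one another in turn through the day, so that many transcripts peak at a set hour. GI is one of its evening-phased genes. It encodes a large protein that works with blue-light receptor F-box proteins and promotes flowering in long days. CCL is a clock-controlled transcript known for rapid, clock-dependent decay of its mRNA. HYH encodes a bZIP transcription factor, the closest relative of HY5, which promotes seedling development in the light and is removed in the dark through the COP1 ubiquitin ligase. AFR encodes an F-box protein with kelch repeats that acts positively in phytochrome A signalling, the far-red light pathway.

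There was 1 array for each genotype, so differences are read by size alone, with no test and no standard error. Signals are the authors' MAS5 values, which scale every array to the same trimmed mean, here 500.0. Values under 102, the 40th percentile of all probe sets that are not array controls, were raised to that floor. Where 1 of the arrays is at the floor the ratio is given as a bound, and where both are there is none. Between 58.3% and 61.6% of probe sets were above the floor on each array. The tissue label was checked on 3 of 14 shoot and leaf markers and 3 of 18 root markers that have a named probe set, with none of them listed at 0. No flower or seed marker had a named probe set. The arrays hold bulk RNA, so fewer cells of a type and less RNA per cell cannot be told apart. Their summed signal was 56616 to 58836 on the Nössen arrays and 44185 to 44449 on the Columbia arrays for shoot and leaf, and 16282 to 16998 over the 4 arrays for root. PYK10 made up nearly all of the root sum, and of the other root markers EXPA18 had a log2 ratio of -1.18 for Col-0 over NO and 0.18 for OE6 over duf761-1, and EXPA7 at least 0.60 and 0.43. Actin control probe sets at the 3′ and 5′ ends, whose ratio is a sign of RNA quality, gave 1.49 to 1.66 on the Nössen arrays and 7.52 to 9.84 on the Columbia arrays. The GAPDH ratio, 1.14 to 1.38, and the ubiquitin ratio, 2.58 to 2.72, moved little. A second set of these controls gave actin ratios of 0.27 to 0.28 on the Nössen arrays and 1.61 to 2.06 on the Columbia arrays. Its GAPDH ratio was 0.75 to 0.89 and its ubiquitin ratio 1.08 to 1.27 over the 4 arrays. The shoot values and these ratios, apart from the second GAPDH ratio, separate the backgrounds as the 4 genes do. Their part in the differences below was not tested. The labels give no locus for DUF761-1 and no table used here names it, so the genotypes could not be checked on the targeted gene.

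GI, the evening clock gene, was clearly present in Columbia and below the floor in Nössen. In Nössen it read 25.4 (NO) and 34.2 (duf761-1), and in Columbia 1684 (Col-0) and 1158 (OE6). Both Columbia arrays were above both Nössen arrays, where the signal lay in the range in which this array carries little information. The log2 ratio of Col-0 over NO was at least 4.04, which is at least 16.5-fold. That of OE6 over duf761-1, the other pair of arrays with the same backgrounds, was at least 3.50, or at least 11.3-fold.

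CCL, the clock-controlled transcript, was far higher in Columbia, and it cannot be ranked against GI, whose ratios are bounds. NO gave 523 and duf761-1 gave 630.0, whereas Col-0 gave 17705 and OE6 gave 16022. All 4 values were above the floor, so its ratios are measured on both sides. Col-0 was 33.8-fold above NO (log2 ratio 5.08) and OE6 was 25.4-fold above duf761-1 (4.67). Among genes above the floor on both arrays of a comparison, 0.0299% were at least as far apart as CCL in Col-0 over NO, and 0.0748% in OE6 over duf761-1.

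HYH, the light-signalling bZIP factor, showed the opposite order. The Nössen arrays read 796 (NO) and 1164 (duf761-1) and the Columbia arrays 90.2 (Col-0) and 78.9 (OE6). Both Columbia arrays were below the floor and both Nössen arrays far above it. The log2 ratio was -2.96 or lower for Col-0 over NO, at least 7.78-fold, and -3.51 or lower for OE6 over duf761-1, at least 11.4-fold.

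AFR, of the phytochrome pathway, read 1181 in NO and 800.2 in duf761-1, against 174 in Col-0 and 166 in OE6. It was lower on both Columbia arrays than on both Nössen arrays, and above the floor on all 4. The log2 ratio was -2.76 for Col-0 over NO, which is 6.77-fold, and -2.27 for OE6 over duf761-1, which is 4.81-fold. Of genes above the floor on both arrays, 0.658% were at least as far apart as AFR in the first comparison and 1.35% in the second.

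**Figure D1:**
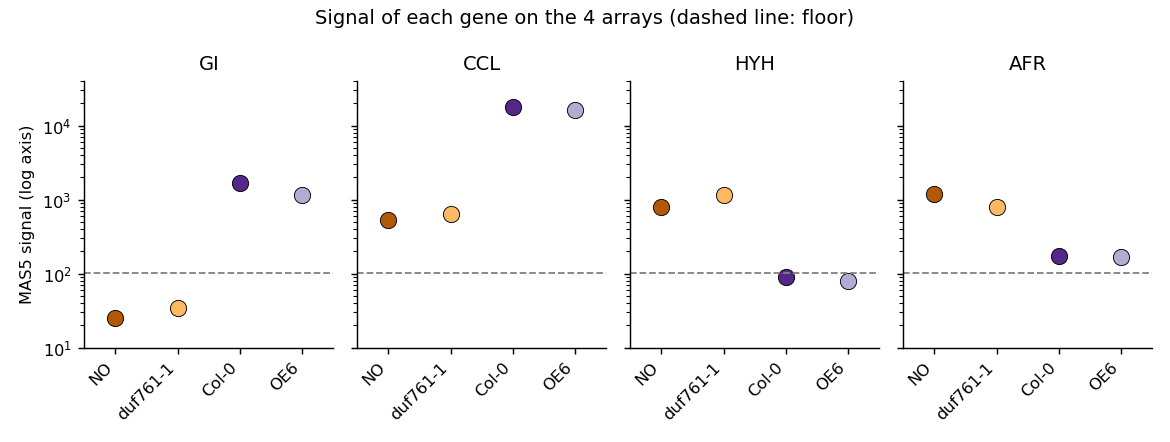
MAS5 signal on a log axis for GI, CCL, HYH and AFR, with 1 point for each array and the floor of 102 as a dashed line. GI and CCL are higher on Col-0 and OE6 than on NO and duf761-1, and HYH and AFR are lower.

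Each background was read from its own seedlings and lines, so background cannot be told apart from any other difference between those arrays. ATH1 probes were designed on Columbia sequence, so for GI and CCL a lower transcript level in Nössen and a poorer match of Nössen RNA to the probes cannot be told apart. HYH and AFR gave their higher signal in Nössen. All 4 genes were past 2-fold in both pairs of arrays, GI and CCL upward and HYH and AFR downward. Over the 7993 genes above the floor on at least 1 array, 9.02% passed 2-fold upward and 5.09% downward from NO to Col-0 (14.1% in all), and 7.71% and 5.22% from duf761-1 to OE6. Of the genes that passed it upward from NO to Col-0, 60.2% did so in the other pair too, and of those that passed it downward 66.8% did. That leaves 5.43% of all genes upward in both pairs, 3.4% downward in both, and 0.0125%, which is 1 gene, in opposite directions. Signals that do not overlap between the backgrounds were found in 66.3% of genes, 36.5% with Columbia above and 29.8% with Columbia below. When arrays were scaled on spiked-in control RNA in place of the deposited scale, the median of all genes moved to 0.40 for Col-0 over NO and 0.29 for OE6 over duf761-1, from 0.04 and 0.02. The share of genes called higher among those called was then 89.0% and 82.3%, against 63.9% and 59.6%. The 4 genes kept their direction and stayed past 2-fold there and in all 11 settings run, the deposited scale included.

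The plot of all genes in the 2 pairs of arrays places the 4 genes beyond the bulk of the genes along the same diagonal. The 2 pairs share no array, but the genes were chosen on all 4 arrays, so their place follows from the choice. The size of the difference was not quite the same in the pairs. From the wild type pair to the pair of mutant and overexpressor, the log2 ratio was 0.49 nearer to 0 for AFR, as it moved from -2.76 to -2.27. For CCL the change was -0.41, toward 0 as well. For HYH it was -0.55, away from 0, and for GI -0.54, toward 0, and both of these rest on bounds. The noise SD for 1 probe set, described below, was 0.42 in the wild type pair and 0.40 in the other. By arithmetic these changes restate the ratios within each background given below, so they are not a separate result.

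**Figure D2:**
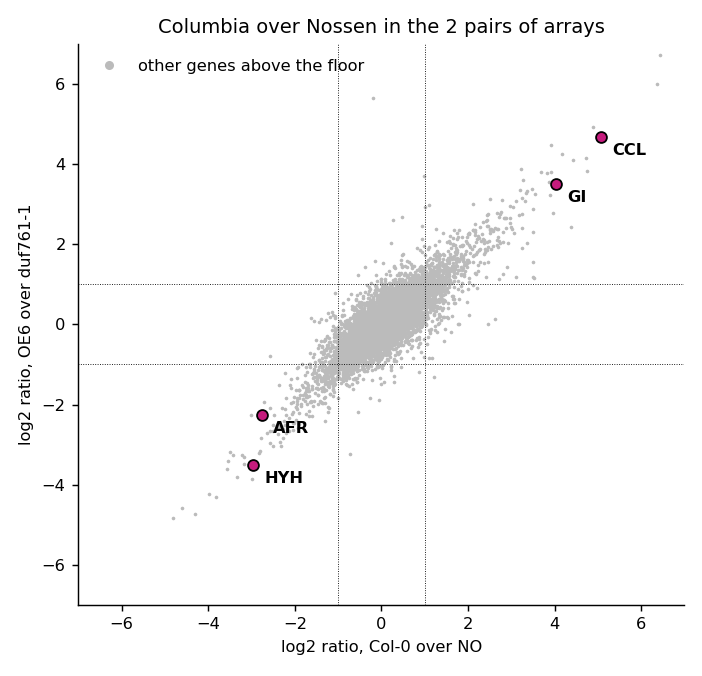
Log2 ratio of Col-0 over NO (horizontal) against OE6 over duf761-1 (vertical) for the 7993 genes above the floor, with dotted lines at 2-fold. CCL at 5.08 and 4.67 and GI at no less than 4.04 and 3.50 lie at the upper right, and AFR and HYH at the lower left.

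Within each background the 4 genes differed far less. They were chosen because the 2 Columbia arrays stood apart from the 2 Nössen arrays, so small differences within a background follow in part from that choice. With 1 array per genotype, the comparisons describe the arrays and do not show what the mutation or the overexpression changes. In each of these comparisons 3 of the 4 had a ratio, and none was 2-fold apart. Between duf761-1 and NO 0.888% of all genes were 2-fold apart (0.663% higher and 0.225% lower), and between OE6 and Col-0 0.951% were (0.475% each way). At such shares a count of none in so few genes says little about them. Among the genes past 2-fold in the mutant comparison, 74.6% were higher. That share was 86.7% with spike-in scaling, 52.8% without a floor and 44.6% with the floor at the 25th percentile, so its direction rests on the floor. Each comparison shares its arrays with those between the backgrounds. HYH had a log2 ratio of 0.55 for duf761-1 over NO, with 1164 against 796, which is 1.46-fold. AFR, in the same comparison, had one of -0.56, with 800.2 against 1181, or 1.48-fold. Of genes above the floor on both arrays, 7.43% were at least as far apart as HYH and 6.91% as AFR. The Nössen-high pair of light-signalling genes therefore stood in opposite order on the mutant array. CCL had a ratio of 0.27, and 31.7% of genes were at least as far apart. GI was below the floor on both Nössen arrays and has no ratio.

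On the OE6 array, GI was the one of the 4 furthest from its wild type. Its log2 ratio to Col-0 was -0.54, with 1158 against 1684, which is 1.45-fold, and 6.80% of genes were at least as far apart. CCL had a ratio of -0.14 and AFR one of -0.07, with 58.1% and 78.7% of genes at least as far apart. HYH was below the floor on both and has no ratio. As a yardstick of noise within arrays, the log2 ratios of 60 genes with a pair of probe sets were compared, which gave an SD for 1 probe set of 0.28 in the Nössen pair and 0.24 in the Columbia pair. The yardstick leaves out differences between plants and labelling reactions. The ratios of HYH and AFR in the mutant and of GI in the overexpressor were larger than this SD. Those of CCL in the mutant and of CCL and AFR in the overexpressor were smaller. Over all genes above the floor the SD of the ratios was 0.31 in both the Nössen and the Columbia pair.

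**Figure D3:**
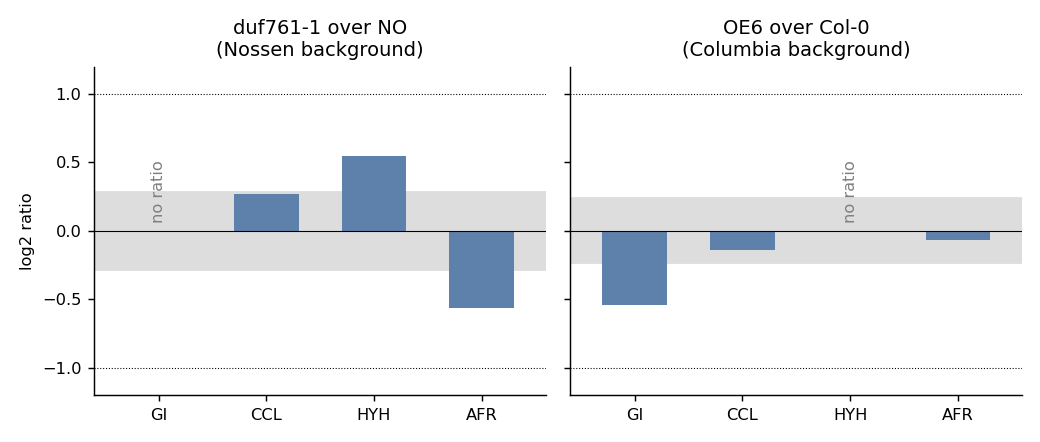
Log2 ratio of the 4 genes in each background, duf761-1 over NO in Nössen and OE6 over Col-0 in Columbia, with the noise yardstick (1 SD, 0.28 and 0.24) in grey and 2-fold dotted. HYH at 0.55 and AFR at -0.56 point in opposite directions in the mutant, and GI at -0.54 is furthest in the overexpressor.

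Other genes of the clock and of light signalling were taken from 11 lists of 251 symbols. Apart from the 4 genes, these lists held 16 genes that the annotation names, of which 14 exceeded the floor. The lists of morning-phased and evening-phased core clock genes, clock output, photoreceptors, and bZIP and F-box relatives held none besides the 4. The annotation leaves 8730 probe sets unnamed, so a gene missing here may still have a probe set on the array. Core clock genes other than GI, and the photoreceptors, were therefore not read. In Col-0 over NO, 3 of the 14 were at least 2-fold higher on floored values and none lower. That is 21.4% apart against 14.1% of all genes, with a median log2 ratio of 0.41 against 0.04 over all genes. CSN5B has a bound there and was 1.34 higher with the floor at the 25th percentile or with none. In OE6 over duf761-1 none of the 14 reached 2-fold on floored values and the median was 0.55 against 0.02. That count rests on the floor, since SPT and CSN5B have bounds there and were 1.09 and 1.43 higher with the floor at the 25th percentile or with none. Within the backgrounds none of the 14 reached 2-fold on floored values either, and the medians for the mutant and the overexpressor were -0.01 and -0.09. That count rests on the floor too, since FHL has a bound in OE6 over Col-0, with 22.0 on OE6 against 137 on Col-0. In duf761-1 over NO FHL has no ratio, with 31.7 on duf761-1 and 71.9 on NO.

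The 3 were AGL24, SPT and BIM1. AGL24, a MADS-box gene that promotes flowering, read 146 (NO), 114 (duf761-1), 369.9 (Col-0) and 214 (OE6), with log2 ratios of 1.34 for Col-0 over NO and 0.92 for OE6 over duf761-1. Its Columbia arrays were both above its Nössen arrays, by far less than in GI and CCL. SPT, a bHLH factor of carpel and seedling growth, had signals of 89.4, 70.3, 244 and 149.9 in the same order, and was at least 1.26 higher on Col-0 than on NO. BIM1, a bHLH factor of brassinosteroid signalling, had signals of 226, 280.1, 475.5 and 423 and ratios of 1.07 and 0.59. With the floor at the 60th percentile AGL24 was within 2-fold in Col-0 over NO (0.36) and SPT was at the floor on both arrays. Both genes were within it with a pseudocount in place of the floor (0.93 and 0.85). BIM1 was within it with that floor and that pseudocount (0.73 and 0.81), after quantile normalization (0.95) and after loess (0.98).

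Clock regulators outside the core loop did not pass 2-fold. TIC, a nuclear regulator of clock amplitude, had a log2 ratio of 0.48 for Col-0 over NO and 0.02 for OE6 over duf761-1. XCT, which sets clock period, had 0.39 and at least 0.56. SMZ, a repressor of flowering, had -0.07 and -0.31. In the COP, DET and SPA list, CSN5B, a subunit of the COP9 signalosome, was at least 0.78 and at least 0.83 higher. With the floor at the 25th percentile or with none, CSN5B was past 2-fold, at 1.34 and 1.43. CUL4, the cullin scaffold of ubiquitin ligases that act on light-signalling factors, had -0.26 and -0.33.

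Other genes of phytochrome signalling did not pass 2-fold between the backgrounds on floored values. FHL, which helps to bring phytochrome A into the nucleus, was above the floor on Col-0 alone, at 137, against 71.9 on NO, 31.7 on duf761-1 and 22.0 on OE6, so its ratios are bounds and do not place it within 2-fold. SCL21, a GRAS factor of the same pathway, read 312 (NO), 201 (duf761-1), 310.0 (Col-0) and 298 (OE6). The duf761-1 array was its lowest, with a log2 ratio to NO of -0.64. Among genes induced by light, RCA, the activase of Rubisco, had a ratio of -0.52 for Col-0 over NO and -0.44 for OE6 over duf761-1, and PORB, a chlorophyll synthesis enzyme, had 0.45 and 0.61. SCL21, RCA and PORB were within 2-fold in each of the 4 comparisons. RCA and LHCB4.1, another gene of the light-induced list, also served as shoot and leaf markers. Their values here are therefore not separate from the tissue check.

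A further 30 genes, found by words in the gene table once the annotation had been seen, gave 19 above the floor. Of 13 bZIP genes among them, the family of HYH, 1 was 2-fold apart on floored values in either pair of backgrounds. It was BZIP61, which read 803 (NO), 838 (duf761-1), 214 (Col-0) and 234 (OE6), with log2 ratios of -1.90 and -1.84. It was lower on both Columbia arrays, in the direction of HYH and AFR. Next came bZIP19, a factor of the zinc deficiency response, at -0.98 and -0.86, which passed 2-fold in Col-0 over NO after median scaling (-1.02). For bZIP58 the ratios are bounds, -0.85 or lower and -0.65 or lower, and were -1.43 and -1.75 with the floor at the 25th percentile or with none, past 2-fold. The median of the 13 was -0.13 for Col-0 over NO and -0.26 for OE6 over duf761-1. Of the 6 other clock and light genes above the floor, AT4G14480, listed as BLUS1, a kinase of blue-light stomatal opening, was 2-fold higher on Col-0 than on NO (1.01), with 0.61 for OE6 over duf761-1. It was within 2-fold after median scaling (0.97), quantile normalization (0.86), loess (0.91), the 60th percentile floor (0.21) and the pseudocount (0.70). Of the antenna protein genes in that list, LHCB4.2 had ratios of -0.63 and -0.77 and LHCB4.3 ones of 0.54 and 0.61.

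Over all 33 list genes above the floor, 4 were at least 2-fold higher and 1 lower in Col-0 over NO on floored values. That is 15.2% against 14.1% of all genes. In OE6 over duf761-1, 1 was lower and none higher, or 3.03% against 12.9%, but with the floor at the 25th percentile or with none 2 were lower and 2 higher. For 24 of the 33 the backgrounds did not overlap, 72.7% against 66.3% of all genes. The shares for Col-0 over NO and for overlap are near those of all genes. On floored values no ratio of the 33 between the backgrounds was as wide as those of GI, CCL, HYH and AFR. Those 4 were chosen for their wide difference, so this order follows from the choice.

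**Figure D4:**
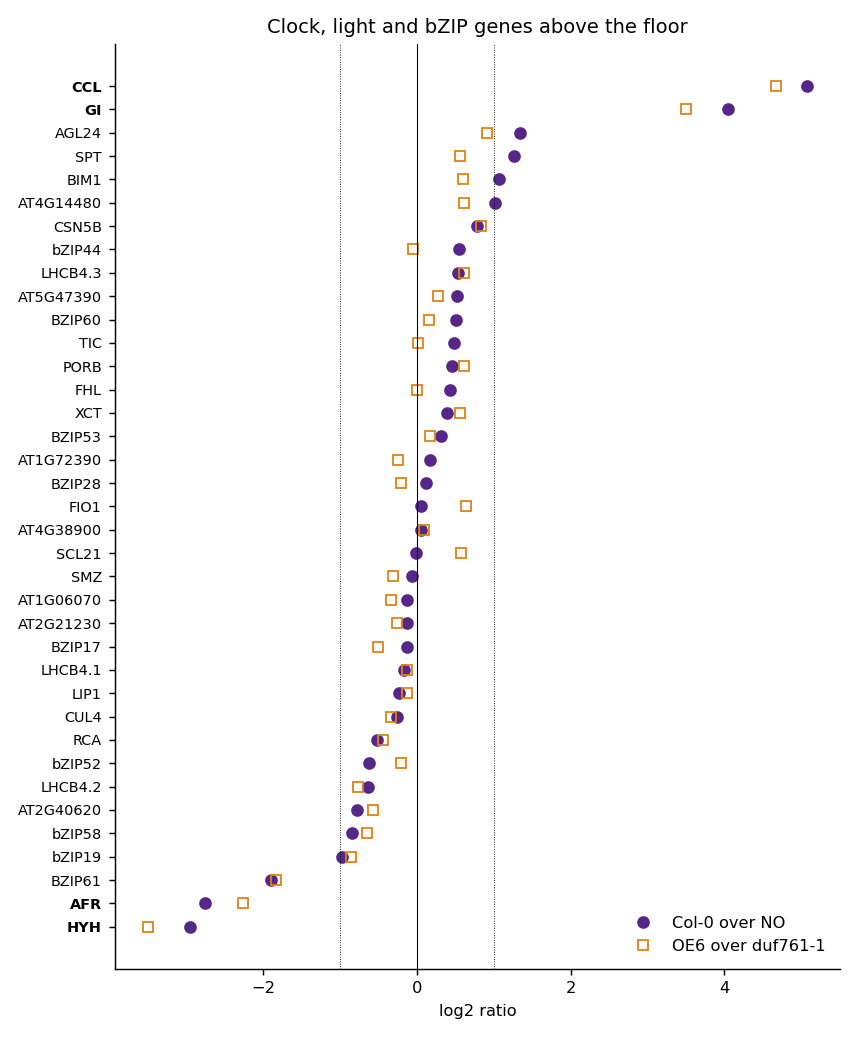
Log2 ratios of Col-0 over NO (filled) and OE6 over duf761-1 (open squares) for the 4 genes, in bold, and the 33 other clock, light and bZIP genes above the floor, with dotted lines at 2-fold. The other genes lie between -1.90 and 1.34, inside the range set by HYH, AFR, GI and CCL, which were chosen for their wide difference.

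To find genes that follow each of the 4, the signal pattern over the 4 arrays was compared with that of all other genes above the floor. Likeness was the root mean square difference of log2 signals, each gene centred on its own mean over the arrays. With so few arrays the measure describes shape and size alone. Closest to GI were AT1G70820 (difference 0.09), AT1G56300 (0.16) and AT4G16146 (0.18), all below the floor on both Nössen arrays. Their Nössen values therefore equal that of GI by construction, and the likeness and its order rest on the Columbia arrays. AT1G70820, for one, read 8.42 (NO), 38.2 (duf761-1), 1486 (Col-0) and 1208 (OE6). These genes have a locus code and no name in the tables used here.

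Closest to CCL were AT3G62550 (0.14), AT5G44580 (0.22) and AT1G67865 (0.32). AT3G62550 had signals of 256, 233.5, 7619 and 7123 in the order NO, duf761-1, Col-0 and OE6, a log2 ratio of 4.90 for Col-0 over NO. Within a difference of 0.5 lay 6 genes for CCL, 29 for GI, 38 for HYH and 94 for AFR, where the floor sets part of the pattern of GI and of HYH.

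Closest to HYH were AT5G42760 (0.09), AT1G10740 (0.13) and AT4G15430 (0.14). AT5G42760 had signals of 954, 1381, 105.5 and 123.5 on NO, duf761-1, Col-0 and OE6, so that its mutant array too stood above its wild type, with a log2 ratio of 0.53. Closest to AFR were AT1G18460 (0.20), XTH33, a xyloglucan-modifying enzyme gene (0.20), and AT4G24700 (0.21). XTH33 had signals of 506, 435 and, below the floor, 54.6 and 65.8. None of these 12 genes belongs to the clock, light and bZIP lists. Those lists held 33 measured genes besides the 4, where 7992 genes were compared, so their absence says little. Between the 4 genes themselves, GI and CCL differed by 0.58 and HYH and AFR by 0.53.

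**Figure D5:**
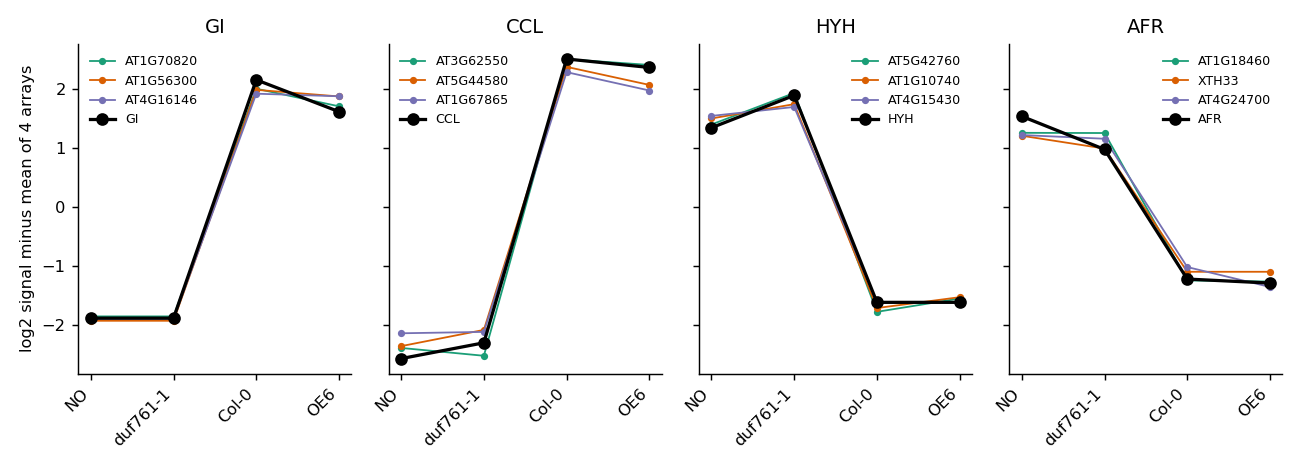
Log2 signal minus the gene's own mean over the 4 arrays, for each of the 4 genes (black) and its 3 closest genes (coloured). The lines join arrays only to show the pattern, which steps between duf761-1 and Col-0 in every panel.

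The genes next to the 4 on the chromosomes were also read. For each gene the nearest 3 named genes above the floor on either side were read in gene order, 24 in all, with up to 20 other genes between. In Col-0 over NO, 1 of the 24 was at least 2-fold higher and 1 lower, where 9.02% of all genes were higher and 5.09% lower, so the count is near that of any genes. Their median log2 ratio was -0.12. In OE6 over duf761-1 the counts were the same, where 7.71% and 5.22% of all genes were, and the median was 0.02. The lower one was AT1G22730, on the side before GI, at -1.30 in Col-0 over NO and with 245 on OE6 against 692 on duf761-1, which is opposite to GI. The higher one was AT2G24600, after AFR, at least 1.45 and at least 1.14 higher, which is opposite to AFR. AT3G26730, directly beside CCL, had ratios of 0.38 and 0.27, and AT2G24550, directly beside AFR, had 0.02 and -0.18. The chromatin remodelling gene BSH, the nearest measured gene before HYH, had -0.12 and -0.13. No coordinates are given because the files name no genome build.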

How the data were processed

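The authors deposited 1 linear intensity (MAS5 signal) for each probe set of 1 ATH1 array per genotype, per the submitters' processing notes. Each array's values have a trimmed mean of 500.0. Depth does not apply to arrays, and their number limits the precision. Of 22810 probe sets, 64 are array controls, 13513 carry 1 gene symbol, 503 several, and 8730 others are unnamed here. Names were updated through a gene table of assembly TAIR10.1, which held 13333 of 13355 genes. For genes read by several probe sets, the brightest on the log2 scale over the arrays was kept.

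From these the floor, log2 ratios, counts at 2-fold, likeness and gene order were computed (Python 3.11.15, pandas 2.3.3, statsmodels 0.14.6), with no test. The members and lists were chosen with earlier results of these data known. Named genes were the members, the 3 nearest to each, and from each list all genes past 2-fold plus up to 2 more with the largest ratio of Col-0 over NO. The symbol CHI, which the gene table gives to a chitinase, was left out. Neighbours were read by a rule added after the data were seen. The 2-fold rule was run on simulated arrays of 13355 genes, with changes planted in genes well above the floor. It recovered 99.0% to 100.0% of 4-fold changes over the 4 comparisons, and 90.0% to 99.0% of changes of 1.5 on the log2 scale. The simulated noise was the yardstick within arrays, which leaves out differences between plants and labelling reactions. The recovery therefore does not show how reliable the rule is on arrays without replicates. Alternatives were other scalings, floors, probe set rules and a 3-fold threshold.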

Additional observations from a re-analysis of the deposited data

How the results depend on the processing

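No paired analysis was possible because there is 1 array per genotype, and no replicate could be left out. A value of one of the 4 genes was taken as moved when it shifted by more than the noise SD of its comparison. GI moved with the floor alone: for Col-0 over NO and OE6 over duf761-1 the log2 ratio was 5.45 and 4.91 with the floor at the 25th percentile, 2.55 and 2.01 at the 60th, and 6.05 and 5.08 without a floor, where duf761-1 over NO was 0.43. HYH was -1.47 and -2.02 at the 60th percentile and -2.22 and -2.81 with the pseudocount. AFR was -2.04 and -1.48, and -2.21 and -1.75, in the same settings. CCL stayed between 4.83 and 5.49 for Col-0 over NO and between 4.46 and 4.97 for OE6 over duf761-1. No ratio of the 4 genes between the backgrounds changed direction or came within 2-fold in the settings run.

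Counts over all genes moved more, in the order higher and lower. With spike-in scaling Col-0 over NO gave 1453 and 179 and OE6 over duf761-1 gave 1090 and 234, and 10 genes were lower on duf761-1 than on NO. With the floor at the 25th percentile, 1087 genes were higher on Col-0 and 967 on OE6 than on their Nössen partners, duf761-1 over NO gave 120 and 149, and OE6 over Col-0 gave 99 and 127. At the 60th percentile the 4 comparisons gave 368 and 248, 301 and 268, 26 and 4, and 13 and 12. Without a floor the last pair of comparisons gave 153 and 137, and 95 and 89. With the pseudocount 270 and 276 genes were lower in the first pair, and the last pair gave 28 and 3, and 19 and 11. At 3-fold the counts were 247 and 127, 215 and 135, 10 and 0, and 6 and 5. Both Columbia arrays were above both Nössen arrays for 4812 genes with spike-in scaling and 1916 at the 60th percentile, and below for 1065 with spike-in scaling. No count of arrays that do not overlap was made with loess, which is fitted to each pair.

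Of the 33 list genes, those 2-fold higher on Col-0 than on NO were 2 after quantile normalization and after loess, and 0 at the 60th percentile, with the pseudocount and at 3-fold. For OE6 over duf761-1 it was 1 with spike-in scaling, and 2 at the 25th percentile and without a floor. Lower genes were 2 in Col-0 over NO after median scaling, at the 25th percentile and without a floor, 2 in OE6 over duf761-1 in the last pair of settings, 1 there in OE6 over Col-0, and 1 without a floor in duf761-1 over NO. A floor sets by construction which genes have a ratio, and the cause of the other shifts was not tested.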
